A study of Mus musculus with 65 samples.

Results

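Of the 48 p53-null mammary tumours in the series, which also holds 17 arrays of mammary gland for a total of 65 arrays, 16 grew in host mice with 1 functional copy of Tgfb1, and these 16 are described here. Per the labels, 10 came from hosts that had been irradiated (irradiated-host tumours, numbered 9 to 18) and 6 from hosts given a sham treatment (sham-host tumours, numbered 1 to 6). All hosts of both groups, the sham-treated ones included, were female BALB/c mice heterozygous for Tgfb1 whose own mammary epithelium had been removed at 3 weeks of age. All tumours developed from fragments of unirradiated BALB/c mammary tissue lacking p53, placed in the inguinal fat pads 3 days after the treatment of the host. Only the host was irradiated, so the comparison asks whether the state of the host left a mark on the RNA of the tumour that later grew in it. The sources used here do not give the dose or the age of the hosts at transplantation and at tumour collection. The remaining 32 tumours, 23 from irradiated and 9 from sham-treated wild-type hosts, served to estimate the spread between tumours and to test whether the host genotypes differed.

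TGF-beta is secreted in a latent complex held by latent TGF-beta binding proteins, and is released by integrins, proteases and ionizing radiation. Free ligand binds a pair of receptor kinases, Tgfbr2 and Tgfbr1, which phosphorylate Smad2 and Smad3, and these enter the nucleus with Smad4 to act on target genes. In the mammary gland the pathway restrains epithelial growth and governs stroma and immune cells, while p53 is the transcription factor that halts or kills cells with damaged DNA and whose loss makes transplanted mammary epithelium prone to tumours.

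RNA was taken from whole frozen tumours, so each array reads donor tumour cells together with host vessels, fibroblasts, fat and immune cells. In such bulk samples fewer cells of a type and less RNA per cell cannot be told apart. Values are the deposited log2 intensities, on which a step of 1 is a 2-fold step, and all levels and differences below are on that scale. Where a gene had several probe sets, the one of highest mean across all 48 tumours was read, and levels are not compared between genes. Counts of list members are over those that passed a filter on dim genes, and stand beside 50.7% of all tested genes that were higher in irradiated-host tumours. Of the tissue label, only the presence of epithelium was looked at here. The epithelial keratin Krt18 lay between 10.85 and 13.98, with a median of 13.52, in irradiated-host tumours, and between 11.66 and 13.95, with a median of 13.64, in sham-host tumours. Trp53 itself is not analysed here, and the loss of p53 was not checked from these arrays.

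The 16 tumours did not form 1 uniform group, and the tumours that stood apart came from both kinds of host. Correlations between arrays over the tested genes ran from 0.819 to 0.972. Summed over 16 luminal epithelial genes such as the adhesion molecule Epcam and the keratins Krt8 and Krt18, the mean level was 9.36 and 9.50 in irradiated-host tumours 11 and 13 and 9.86 and 9.40 in sham-host tumours 2 and 6. In the other 12 tumours it was 11.16 to 11.99. These 4 epithelial-low tumours had the highest levels of the mesenchymal filament gene Vim, at 13.96 and 14.03 in irradiated-host tumours 11 and 13 and at 13.65 and 14.07 in sham-host tumours 2 and 6. They also lay together at the far end of the first principal component, which held 29.6% of the variance. Skeletal muscle genes stood out in irradiated-host tumours 9 and 17, with list means of 9.90 and 10.65 against 5.34 to 7.35 in the other tumours, and the muscle actin Acta1 reached 11.78 and 12.68 there. Sham-host tumour 3 was alone at the far end of the second component (12.2% of the variance), had the lowest median correlation with the other arrays (0.875) and the lowest mean of all 16 tumours in 14 of 32 gene lists. Leaving out 1 of the 16 tumours at a time moved the difference by over 1.5 times or turned its sign for 93 of 149 named genes, and did the same to the median of 28 of 32 lists. The sign turned in 12 of these genes and 9 of these lists. Values without single tumours are given below for the genes and lists described at most length.

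**Figure D1:**
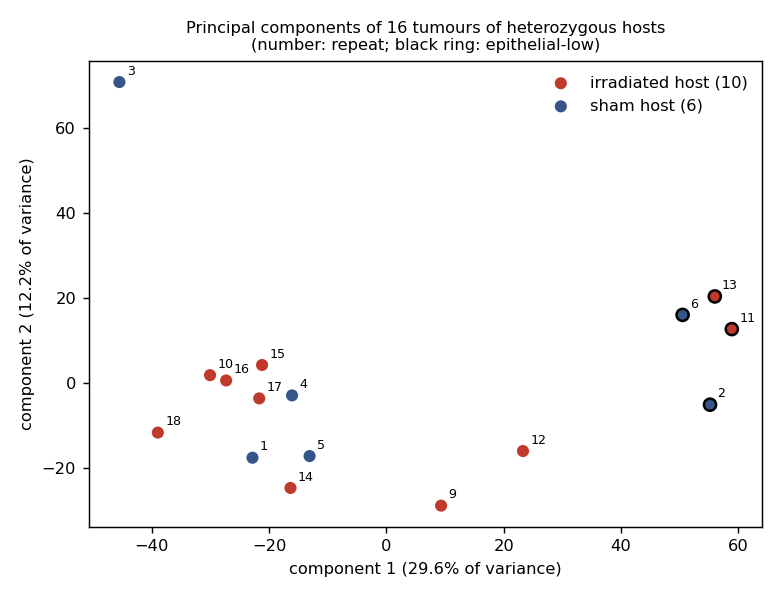
Principal components 1 and 2 of the 16 tumours of heterozygous hosts, with red points for the 10 irradiated-host and blue points for the 6 sham-host tumours, each labelled with its number, and black rings around the 4 epithelial-low tumours. The 4 ringed tumours, 2 of each group, lie together on the right, sham-host tumour 3 lies alone at the top, and the groups are mixed along both axes.

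No gene passed the test between tumours of irradiated and sham-treated heterozygous hosts. In limma's test with Benjamini-Hochberg adjustment, 0 of 12786 tested genes (0%) passed the threshold of 0.05, and the smallest adjusted p was 0.9998. At an unadjusted p under 0.05 there were 505 genes (3.95%), of which 196 (1.53%) were higher and 309 (2.42%) lower, whereas 639 would be reached with no difference anywhere. The difference was above 0 in 6488 genes (50.7%), and its median over all tested genes was 0.0039. Over 20 equal bins of the p-value, the first bin held 505 genes and the fullest, from 0.85 to 0.9, held 717.

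The 95% confidence interval of the difference lay within 2-fold in either direction for 10233 genes (80.0%) and within 1.5-fold for 6613 genes (51.7%). The median standard error (SE) of a difference was 0.20. For the rest, the interval reached beyond 2-fold. Fitted differences of more than 2-fold occurred in 107 genes. The spread between tumours was of like size in the groups. The median SD over genes was 0.338 in irradiated-host and 0.390 in sham-host tumours, with the larger SD in sham-host tumours for 58.9% of genes, and without sham-host tumour 3 that share was 49.2% and the sham median 0.351.

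**Figure D2:**
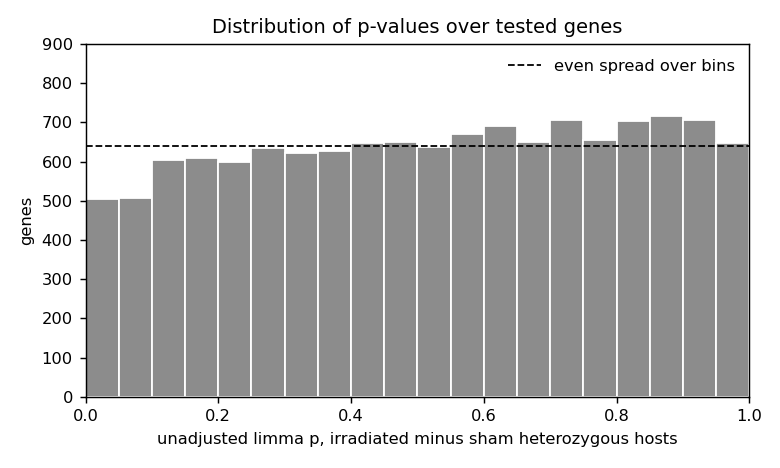
Number of tested genes in each of 20 equal bins of the unadjusted limma p for tumours of irradiated minus sham-treated heterozygous hosts, with a dashed line at the 639 genes per bin of an even spread. The 2 lowest bins hold 505 and 507 genes, under the line.

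The genes with the smallest unadjusted p are described as values only, since none passed. Among genes higher in irradiated-host tumours, G6pc3, the widely expressed catalytic subunit of glucose-6-phosphatase in the endoplasmic reticulum, came first. Its level was 8.69 to 9.50 (median 8.96) in irradiated-host tumours and 8.08 to 8.90 (median 8.54) in sham-host tumours, a difference of 0.51 (SE 0.14, unadjusted limma p = 0.000866). The ranges overlapped, with 6 of 10 irradiated-host tumours above every sham-host tumour. Derl2, which helps extract misfolded proteins from the same compartment, differed by 0.44 (SE 0.13), between 10.07 and 10.80 in irradiated-host and between 9.32 and 10.50 in sham-host tumours. Its second, dimmer probe set differed by 0.15. Ndufa1, a subunit of respiratory complex I, differed by 0.28 (SE 0.09), and all 10 irradiated-host tumours (12.43 to 12.80) lay above the sham median of 12.32, in a sham range of 12.03 to 12.63.

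Rasa1, which switches off the GTPase Ras, was one of the better separated of these genes. It lay between 9.73 and 10.96 (median 10.81) in irradiated-host tumours and between 9.91 and 10.38 (median 10.14) in sham-host tumours. The difference was 0.51 (SE 0.17, unadjusted limma p = 0.00345), 8 of 10 irradiated-host tumours were above the whole sham range, and the other 2 probe sets of the gene differed by 0.41 and 0.44. Ankra2 differed by 0.42 (SE 0.14), with 9 of 10 irradiated-host tumours above the sham range. Its other, dimmer probe set differed by -0.25, and the mean of its probe sets by 0.08. The rest of the 12 genes of smallest p on this side had differences of 0.24 for Clptm1l, 0.30 for Cracd, an inhibitor of actin capping protein, 0.42 for both BC031181 and Ier3ip1, 0.46 for the vasoactive peptide gene Edn3, 0.51 for Rfesd and 1.36 for Plin4. Ier3ip1 was lowest in sham-host tumour 1, and without that tumour its difference was 0.26. The other 3 probe sets of Edn3 differed by 0.05, -0.10 and -0.01. Those of Cracd, all dimmer, differed by -0.11 to 0.12.

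Among genes lower in irradiated-host tumours, Bbs1 had the smallest unadjusted p of all genes. Bbs1 encodes a subunit of the BBSome, the complex that carries membrane proteins to the primary cilium. The 10 irradiated-host tumours had 6.48, 5.95, 5.83, 6.38, 5.53, 5.62, 6.13, 4.91, 6.18 and 6.16, and the 6 sham-host tumours had 7.16, 6.49, 7.12, 6.85, 7.39 and 6.74. The groups did not overlap, although the closest pair, 6.48 in irradiated-host tumour 9 and 6.49 in sham-host tumour 2, was almost level. The difference was -1.04 (SE 0.28, 95% interval -1.60 to -0.48), with an unadjusted limma p = 0.000487 and an adjusted p = 0.9998. Over all genes the groups failed to overlap in 2 (0.0156%), 1 higher (0.00782%) and 1 lower (0.00782%) in irradiated-host tumours. The other was Zfp712, a zinc finger gene named here after its values were seen, at 5.95 to 6.55 in irradiated-host and 5.76 to 5.95 in sham-host tumours, a difference of 0.34 (SE 0.12, unadjusted limma p = 0.00871).

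Several of the next genes on the lower side encode proteins that handle RNA. Hnrnpd, which binds AU-rich messenger RNAs, lay between 10.16 and 11.13 (median 10.51) in irradiated-host tumours and between 10.91 and 11.38 (median 11.16) in sham-host tumours, a difference of -0.62 (SE 0.19), and 9 of 10 irradiated-host tumours were below the sham range. Ints5, of the Integrator complex that cleaves nascent RNA, differed by -0.40 (SE 0.12), and Cnot3, of the deadenylase complex CCR4-NOT, by -0.37 (SE 0.11). Ubap2l, a stress-granule protein gene, differed by -0.61 (SE 0.17), but sham-host tumour 3 stood at 11.80 against 10.00 to 10.51 in the other sham-host tumours. Without that tumour the difference was -0.37, and its 6 probe sets ranged from -0.61 to -0.01. No list of RNA-handling genes was among those examined, so these are single genes.

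The remaining genes of smallest p on the lower side were Plcb3, a phospholipase C that acts downstream of receptors (-0.49, SE 0.14), Galnt6, which starts mucin-type O-glycans (-0.81, SE 0.24, or -0.43 without sham-host tumour 1 at 9.06), Gtf3c5 of the RNA polymerase III factor TFIIIC (-0.37, SE 0.11), Ccp110, which caps centrioles (-0.55, SE 0.17), the unnamed transcripts 1110038F14Rik (-0.47) and AI506816 (-0.93), and Cpxm2. For Ccp110, 9 of 10 irradiated-host tumours lay below the sham range. Adjusted p was 0.9998 for all of these.

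**Figure D3:**
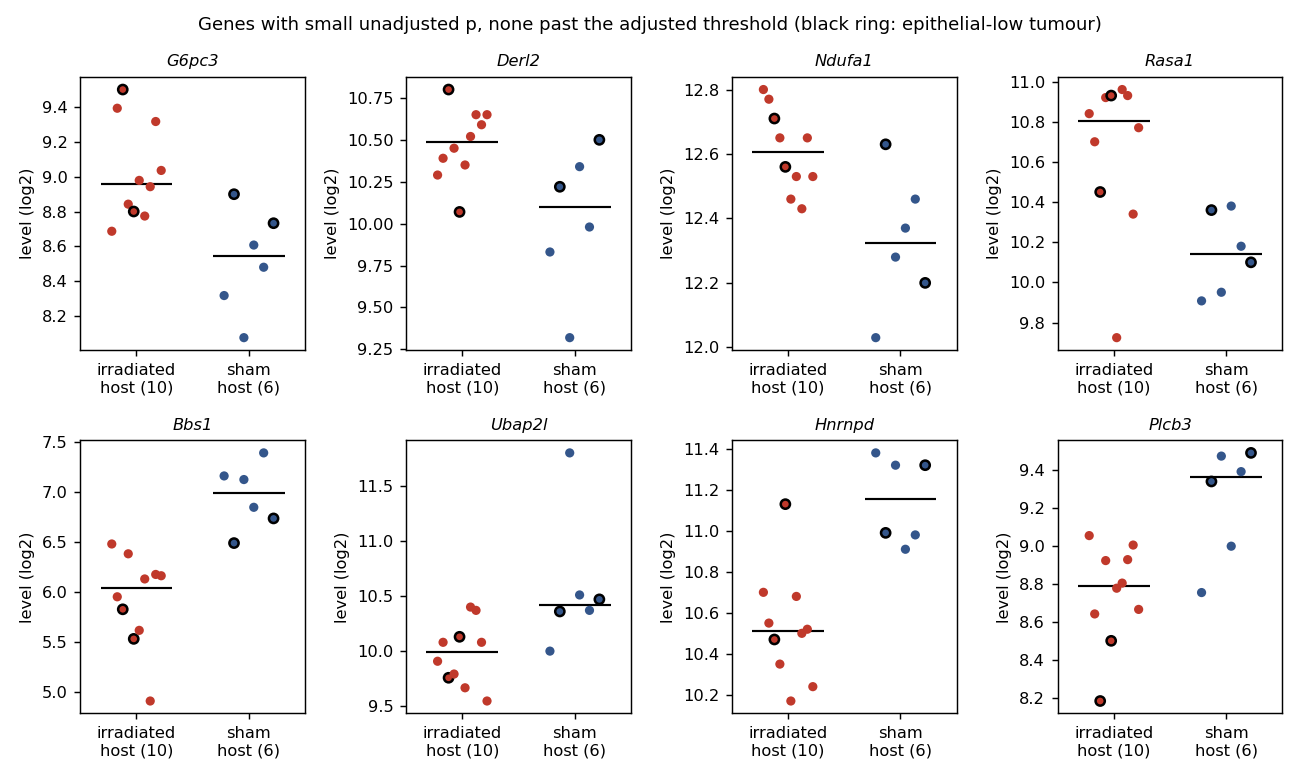
Level (log2) of 8 genes of small unadjusted p, with 1 point per tumour, irradiated hosts (red, 10) left of sham-treated hosts (blue, 6), a line at each group's median and black rings around the 4 epithelial-low tumours. Only Bbs1 shows groups that do not overlap, and sham-host tumour 3 stands alone at 11.80 for Ubap2l.

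Several large fitted differences came from genes that varied widely from tumour to tumour. Gas6, a ligand of the receptor kinases Axl and Mertk, lay between 10.05 and 14.00 (median 11.09) in irradiated-host tumours and between 8.35 and 11.44 (median 10.23) in sham-host tumours, a difference of 1.57 (SE 0.57). Irradiated-host tumours 9, 12 and 18, at 13.94, 12.91 and 14.00, held the top of that range, and the groups overlapped below them. Cpxm2, a carboxypeptidase-like secreted protein gene, lay between 5.50 and 8.88 (median 6.59) in irradiated-host and between 6.40 and 10.64 (median 9.29) in sham-host tumours, a difference of -2.03 (SE 0.62). Without the 4 epithelial-low tumours it was -1.32, and a second probe set differed by -1.02.

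Artn, a ligand of the GDNF family, and Actg2, the smooth muscle gamma actin gene, had smaller differences without the epithelial-low tumours. Artn differed by -1.37 (SE 0.43), with the 2 highest sham values, 8.93 and 7.70, in epithelial-low tumours 6 and 2, and by -0.65 without the 4 epithelial-low tumours. Actg2 stood at 11.3 and 9.1 in epithelial-low sham-host tumours 2 and 6. In epithelial-low irradiated-host tumours 11 and 13 it stood at 7.5 and 4.9, the last being the lowest of all tumours. The Actg2 difference was -1.83 (SE 0.59), and -0.93 without the 4 epithelial-low tumours. Pbx3, a homeodomain factor gene, held its size at -1.10 (SE 0.34) and at -1.12 without them, and its second probe set differed by -0.81. Other large differences were 1.26 (SE 0.44) for the mitochondrial carrier gene Slc25a35, 1.02 (SE 0.37) for the NAD(H) pyrophosphatase gene Nudt12 and 0.90 (SE 0.33) for the phosphodiesterase gene Gdpd1. Nudt12 was at 3.01 in sham-host tumour 1, and without that tumour its difference was 0.54. Gdpd1 differed by 0.53 without sham-host tumour 3.

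In the TGF-beta pathway, for which every host carried 1 copy of the ligand gene Tgfb1, no gene passed the adjusted test, and the intervals of the 3 ligand genes held 0. Tgfb1 lay between 8.04 and 9.29 (median 8.58) in irradiated-host tumours and between 6.47 and 9.10 (median 8.51) in sham-host tumours, a difference of 0.29 (SE 0.30, 95% interval -0.32 to 0.90). The lowest value was that of sham-host tumour 3, and without it the difference was -0.06. A second, dimmer probe set differed by -0.14. Donor cells carry their own Tgfb1, and the probe sets do not separate donor from host RNA. Tgfb2 lay between 6.61 and 9.63 (median 8.21) in irradiated-host and between 8.37 and 10.34 (median 8.69) in sham-host tumours, a difference of -0.67 (SE 0.43), with 4 probe sets between -0.76 and -0.50. Without sham-host tumour 3, the highest, it was -0.39. Tgfb3 differed by 0.12 (SE 0.37).

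The type I receptor Tgfbr1 differed by 0.19 (SE 0.20) and the type II receptor Tgfbr2 by -0.04 (SE 0.25, 95% interval -0.54 to 0.46). The latent binding protein genes Ltbp1 and Ltbp2 differed by 0.86 (SE 0.51) and 0.85 (SE 0.48), and Ltbp2 reached 12.04 in irradiated-host tumour 13. Ltbp1 stood at 4.68 in sham-host tumour 3, without which Ltbp1 differed by 0.16 and Ltbp2 by 0.55, and a dimmer probe set of Ltbp1 differed by 0.04. Of the 15 tested genes for ligands, receptors and activators, 11 were higher and 4 lower, 0 had an unadjusted p under 0.05, and the median difference was 0.08 beside 0.0039 over all genes. Of 19 Smads and target genes, 14 were higher and 5 lower with a median of 0.19. Only Smad2 among them had an unadjusted p under 0.05, beside 3.95% of all genes. Smad2 differed by 0.32 (SE 0.14), with all 10 irradiated-host tumours (8.89 to 9.49) above the sham median of 8.81 and 4 of 10 above the sham range of 8.51 to 9.18. The feedback inhibitor Smad7 differed by 0.28 (SE 0.22), Smad4 by 0.10 (SE 0.12), the inhibitor of differentiation Id2 by 0.63 (SE 0.33) and the matricellular factor Ccn2 by -0.19 (SE 0.32).

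Epithelial genes had wide intervals, and each group held 2 of the 4 epithelial-low tumours. Of 16 luminal genes, 13 were higher and 3 lower, and the median difference was 0.25. Within 2-fold stayed 0 of their 95% intervals, beside 80.0% of all genes. Epcam differed by 0.26 (SE 0.80), Krt18 by 0.07 (SE 0.56) and Cdh1, the adherens junction cadherin, by 0.14 (SE 0.69). Without sham-host tumour 6 the luminal median was -0.11. Genes of hormone-sensing luminal cells were split 5 to 5, with a median of 0.10. The oestrogen receptor gene Esr1 and its pioneer factor Foxa1 were highest in irradiated-host tumour 14, at 10.60 and 12.43, and the differences were 1.02 (SE 0.58) for Esr1 and 1.15 (SE 0.83) for Foxa1. Without sham-host tumour 3 they were 0.57 for Esr1 and 0.58 for Foxa1, and with array weights 0.23 for Esr1 and -0.19 for Foxa1. Milk protein and alveolar genes were higher in 12 of 13, with a median of 0.37 that was -0.05 without the epithelial-low tumours, and beta-casein Csn2 differed by 1.72 (SE 0.95), or by 1.03 without sham-host tumour 3.

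Basal and squamous genes had list medians below 0 that depended on which tumours were left out. Of 16 basal and myoepithelial genes 10 were lower, with a median of -0.46, and the median was 0.0012 without the 4 epithelial-low tumours, -0.46 without these and the 2 muscle-rich tumours, and -0.12 without sham-host tumour 2. Krt5, a basal keratin, lay between 6.02 and 10.07 (median 7.09) in irradiated-host and between 5.59 and 12.89 (median 8.35) in sham-host tumours, a difference of -1.41 (SE 0.80), and the basal lineage factor Trp63 differed by -1.03 (SE 0.80). Without the epithelial-low tumours both Krt5 and Trp63 differed by -1.12, while Krt5 differed by -0.56 without sham-host tumour 2 and Trp63 by -0.58 without sham-host tumour 1. Of 9 squamous genes 8 were lower, with a median of -0.25 that was 0.07 without the 4 tumours. Krt6b, a keratin of stressed epidermis, differed by -1.89 (SE 0.88, unadjusted limma p = 0.0374), but sham-host tumour 2 alone stood at 12.20, and without the epithelial-low tumours the difference was -0.72. Mesenchymal transition genes were 7 higher and 8 lower with a median of -0.10 that was 0.18 without the 4 epithelial-low tumours. The neural cadherin Cdh2 differed by -1.59 (SE 1.05), the repressor Snai2 by -1.17 (SE 0.82), Vim by -0.51 (SE 0.44) and fibronectin Fn1 by 0.67 (SE 0.48). Without the epithelial-low tumours Cdh2 differed by -0.998, Snai2 by -0.997 and Vim by -0.44.

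Among fibroblast and collagen genes 15 of 18 were lower, with a median difference of -0.41, and the size depended on the epithelial-low tumours. Col1a1, the main fibrillar collagen gene, lay between 9.04 and 12.55 (median 10.23) in irradiated-host and between 10.06 and 13.17 (median 10.77) in sham-host tumours, a difference of -0.80 (SE 0.48). Without the 4 epithelial-low tumours the Col1a1 difference was -0.09 and the median of the list was 0.05. Col5a2, of another fibrillar collagen, differed by -0.81 (SE 0.41). Matrix proteases and their inhibitors were split 8 to 8 with a median of -0.02 that was 0.41 without the epithelial-low tumours and -0.38 without sham-host tumour 3, and the protease gene Adamts5 differed by -0.77 (SE 0.46).

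Fat cell genes were the list with the largest median, and all of its 10 tested members, of 13 measured and 15 listed, were higher in irradiated-host tumours. The list mean was 6.39 to 9.85 (median 7.58) in irradiated-host tumours and 5.88 to 7.95 (median 6.75) in sham-host tumours, so that the ranges overlapped, with irradiated-host tumours 11, 17, 14 and 12 at 9.85, 9.05, 8.76 and 8.31 above every sham-host tumour. The median difference was 0.87 and stayed between 0.59 and 1.09 under all alternatives run. Of the 10 genes 4 had an unadjusted p under 0.05, beside 3.95% of all genes, and 0 passed after adjustment. The 10 genes were read in the same tumours, so they are not independent and the 4 are not separate results. Plin4, a coat protein of lipid droplets, lay between 4.97 and 9.38 (median 6.24) in irradiated-host and between 4.71 and 6.44 (median 5.15) in sham-host tumours, a difference of 1.36 (SE 0.46). The hormone genes Adipoq and Retn differed by 1.86 (SE 0.88) and 0.80 (SE 0.38), and Cidec, which fuses lipid droplets, by 0.99 (SE 0.49). Plin4, Adipoq and Retn all had their highest values in irradiated-host tumours 11, 17 and 14. The sources used here do not say how much fat pad was taken with each tumour, and the part of that tissue in these values was not tested.

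Muscle and vessel genes showed how far single tumours set a list. All 11 skeletal muscle genes were higher, with a median of 0.67, but without the muscle-rich tumours 9 and 17 the median was -0.20. The muscle creatine kinase gene Ckm stood at 10.48 and 11.38 in these 2, at 5.12 to 7.29 in the other irradiated-host tumours and at 5.45 to 7.22 in sham-host tumours. Endothelial genes were higher in 12 of 13 with a median of 0.21, which was -0.03 without sham-host tumour 3, 0.59 without the 4 epithelial-low tumours and 0.75 without these and the muscle-rich tumours. Pecam1 and Cdh5, adhesion proteins of vessel walls, differed by 0.13 (SE 0.54) and 0.18 (SE 0.56). Of 4 nerve and glia genes 2 were higher, with a median of 0.12 that ranged from -0.15 to 0.30 under all alternatives run. Mbp, on the higher side, differed by 0.40, but its other, dimmer probe sets differed by 0.02 to -0.84. The part that tissue next to the tumour plays in the muscle, vessel and nerve differences was not tested.

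Immune genes were mostly higher in irradiated-host tumours, by amounts within the spread, and sham-host tumour 3 had the lowest mean of all 16 tumours for neutrophil and for chemokine genes. Of 16 macrophage genes 14 were higher with a median of 0.32, which was 0.14 without that tumour. Csf1r, the macrophage growth factor receptor gene, lay between 10.79 and 12.94 (median 11.52) in irradiated-host and between 10.34 and 12.34 (median 11.48) in sham-host tumours, a difference of 0.39 (SE 0.32). The lipopolysaccharide co-receptor gene Cd14 differed by 1.04 (SE 0.54) and by 0.62 without sham-host tumour 3. Neutrophil and acute phase genes were higher in 8 of 9 with a median of 0.73, and 0.26 without it, and the receptor gene Csf3r, of smallest p in the list, differed by 0.73 (SE 0.36), or by 0.45 without irradiated-host tumour 9. Chemokine genes were higher in 12 of 15 with a median of 0.39, and 0.05 without it. Cxcl1, which draws neutrophils, lay between 8.33 and 12.28 (median 10.15) in irradiated-host and between 7.04 and 9.93 (median 9.29) in sham-host tumours, a difference of 1.06 (SE 0.51), with 6 of 10 irradiated-host tumours above the sham range.

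Antigen presentation and lymphocyte genes gave a like picture. All 7 tested genes for MHC class II were above 0, at a median of 0.53 that was 0.24 without sham-host tumour 3 and 0.21 without sham-host tumour 6, and the invariant chain Cd74 differed by 0.63 (SE 0.42). Interferon-induced genes were higher in 16 of 19 with a median of 0.22, which was 0.046 without the epithelial-low tumours and 0.09 without sham-host tumour 3, and the immunoproteasome gene Psmb8 differed by 0.49 (SE 0.38). T and NK cell genes were dim, at a list mean of 5.27 to 6.71 in irradiated-host and 5.32 to 6.07 in sham-host tumours, with a filter level of 5.14. Of 9 tested, 7 were higher, the median was 0.09, and the T cell receptor chain gene Cd3e differed by 0.26 (SE 0.16). All 5 tested B and plasma cell genes were higher with a median of 0.40. Among them the antibody genes Ighm and Jchain differed by 1.06 (SE 0.58) and 1.37 (SE 0.80), while the B cell gene Cd79a lay under the filter.

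**Figure D4:**
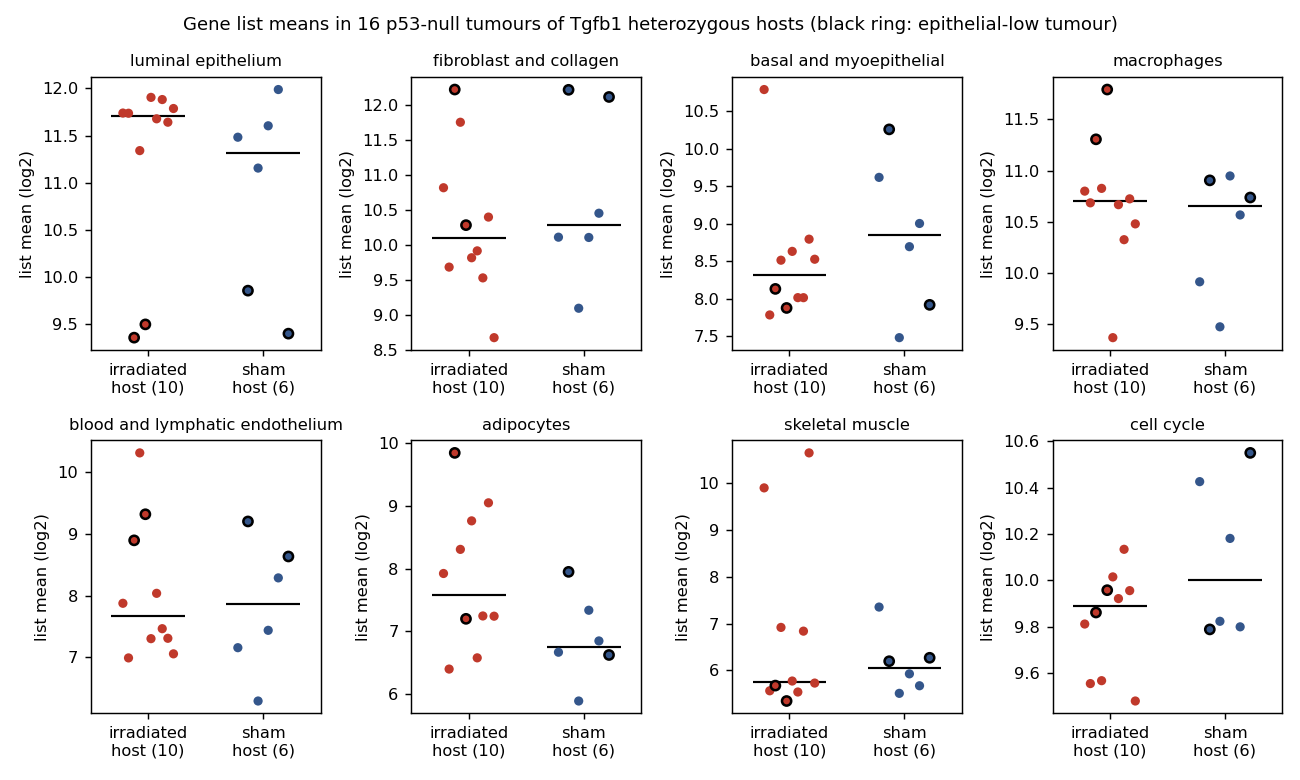
Mean level (log2) over the tested genes of 8 gene lists, with 1 point per tumour, irradiated hosts (red, 10) left of sham-treated hosts (blue, 6), a line at each group's median and black rings around the 4 epithelial-low tumours. The groups overlap in every panel, the epithelial-low tumours sit at the bottom for luminal genes, and 2 irradiated-host tumours (9.90 and 10.65) stand alone for skeletal muscle.

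Most proliferation genes were lower, by small amounts. Of 22 cell cycle genes 20 were lower and 2 higher, beside 50.7% of all genes higher, and the median was -0.28. It stayed between -0.35 and -0.22 under all alternatives run. Of the 22 intervals 18 lay within 2-fold, beside 80.0% of all genes. The list mean was 9.48 to 10.13 (median 9.89) in irradiated-host tumours and 9.79 to 10.55 (median 10.00) in sham-host tumours, and the top 3 values were those of sham-host tumours 6, 1 and 4. Sham-host tumours 2, 3 and 5, at 9.79, 9.82 and 9.80, lay below the irradiated-host median. Mcm3, of the helicase that opens replication origins, lay between 9.19 and 10.16 (median 9.81) in irradiated-host and between 9.76 and 10.63 (median 10.29) in sham-host tumours. The difference was -0.56 (SE 0.20, unadjusted limma p = 0.00691), and its 5 probe sets ranged from -0.56 to -0.14. The proliferation marker Mki67 differed by -0.35 (SE 0.22, 95% interval -0.79 to 0.08) and the spindle checkpoint kinase Bub1 by -0.53 (SE 0.32).

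DNA repair genes and the genes that p53 normally drives had small list medians. Of 18 repair and checkpoint genes 14 were lower, with a median of -0.11. Of their 18 intervals 16 lay within 2-fold, beside 80.0% of all genes. The damage-response kinase Atm differed by 0.08 (SE 0.17). Lig4, the ligase of non-homologous end joining, differed by 0.89 (SE 0.42), with irradiated-host tumour 18 at 11.20 and sham-host tumour 1 at 6.29, or by 0.58 without the first of these, and the histone gene H2ax by -0.52 (SE 0.31), or by -0.21 without sham-host tumour 1 at 11.84. Of 17 p53 target and cell death genes 11 were higher with a median of 0.06. The cell cycle inhibitor Cdkn1a differed by -0.21 (SE 0.39), the p53 antagonist Mdm2 by 0.08 (SE 0.15), the stress-response gene Gadd45a by 0.77 (SE 0.35, unadjusted limma p = 0.0337) and Phlda3 by -0.77 (SE 0.41). Tumour suppressors and oncogenes were split 7 to 7 with a median of -0.01. Myc differed by -0.03 (SE 0.17), and Yap1, the Hippo pathway co-activator, by -0.59 (SE 0.32), or by -0.26 without sham-host tumour 3 at 13.62.

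The respiratory chain was the list measured with the smallest errors. Of 16 genes 13 were higher, beside 50.7% of all genes, with a median of 0.09. All 16 intervals stayed within 2-fold, beside 80.0% of all genes. An unadjusted p under 0.05 was found in 3, beside 3.95% of all genes, and 0 passed after adjustment. Beside Ndufa1 these were Sdha, of complex II, at 10.72 to 11.17 in irradiated-host and 10.39 to 11.08 in sham-host tumours with a difference of 0.30 (SE 0.11), and Cox5a, of complex IV, at 0.20 (SE 0.09). Among hypoxia and glycolysis genes 14 of 17 were lower and the median was -0.19, which was -0.08 without sham-host tumour 3. The glucose transporter Slc2a1 lay between 10.00 and 11.51 (median 11.01) in irradiated-host and between 10.95 and 12.14 (median 11.80) in sham-host tumours, a difference of -0.62 (SE 0.24, unadjusted limma p = 0.0139), while Vegfa differed by -0.15. Cholesterol and fatty acid genes had a median of 0.06, with 10 of 16 higher. The smallest p among them was that of Acly, which makes cytosolic acetyl-CoA, at 0.38 (SE 0.14).

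Growth factor and stress lists varied around small medians. EGF and insulin-like growth factor genes were higher in 14 of 17 with a median of 0.27, or 0.11 without sham-host tumour 3. The smallest p among them was that of Igf2r, the receptor that clears IGF2 and carries lysosomal enzymes. It differed by 0.81 (SE 0.30), with 7 of 10 irradiated-host tumours above the sham range, by 0.79 in its second probe set and by 0.46 without the epithelial-low tumours. Notch and Wnt genes were lower in 14 of 18 with a median of -0.22, and the Notch ligand Jag2 differed by -0.38 (SE 0.24), or by -0.19 without sham-host tumour 1 at 8.70. Immediate early genes were higher in 10 of 13 with a median of 0.21, and Fos differed by 0.48 (SE 0.28). NRF2 genes had a median of 0.08 that was -0.105 without the epithelial-low tumours, and the thioredoxin reductase gene Txnrd1 differed by -0.30 (SE 0.13, unadjusted limma p = 0.0193).

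Whether irradiation of the host went with another difference in heterozygous than in wild-type hosts was tested directly, on groups that share no arrays. The change in heterozygous hosts minus the change in wild-type hosts passed the adjusted threshold in 0 of 12786 genes (0%), the smallest adjusted p being 0.9997, and had an unadjusted p under 0.05 in 617 (4.83%). In wild-type hosts alone 0 genes (0%) passed, with 887 (6.94%) at an unadjusted p under 0.05. Across genes, which are not independent replicates, the changes of the genotypes had a Pearson correlation of -0.0016. Of 32 lists 13 had medians of opposite sign in the 2 host genotypes.

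The widest gap between the genotypes was again in fat cell genes. Their median difference was 0.87 in heterozygous and -0.33 in wild-type hosts. Of the 10 genes 5 had an unadjusted interaction p under 0.05, beside 4.83% of all genes, but the 10 are not independent and 0 passed after adjustment. In wild-type hosts the list mean had a median of 7.26 in irradiated and 7.26 in sham-treated hosts. It reached 8.01 with irradiated and 9.05 with sham-treated wild-type hosts. Apart from the tumour of conflicting labels, single wild-type-host tumours were not left out. Adipoq differed by 1.86 in heterozygous and by -0.44 in wild-type hosts, and Plin4 by 1.36 in heterozygous and by -0.46 in wild-type hosts. The median of basal genes was -0.46 in heterozygous and 0.17 in wild-type hosts. That of squamous genes was -0.25 in heterozygous and 0.33 in wild-type hosts. That of endothelial genes was 0.21 in heterozygous and -0.36 in wild-type hosts. In wild-type hosts the endothelial list mean had medians of 7.41 (irradiated) and 7.46 (sham). Its highest values there were 8.59 (irradiated) and 11.80 (sham). Collagen genes had medians of like sign, -0.41 in heterozygous and -0.32 in wild-type hosts, as did cell cycle genes, at -0.28 in heterozygous and -0.12 in wild-type hosts.

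Single genes with the smallest interaction p had opposite signs in the 2 genotypes. They were picked for the gap between the genotypes, which favours opposite signs, so the signs are no separate result. Ikzf4, a zinc finger factor of regulatory T cells, differed by -0.53 in heterozygous and 0.34 in wild-type hosts (unadjusted limma interaction p = 0.000123, adjusted p = 0.9997), at levels near the filter. In heterozygous hosts G6pc3 differed by 0.51, the LIM-domain gene Lmcd1 by 1.31, the intermediate filament gene Synm by 0.72, the cohesin gene Smc3 by -0.41 and Siae, an esterase of sialic acids, by 0.52. In wild-type hosts G6pc3 differed by -0.20, Lmcd1 by -1.21, Synm by -1.39, Smc3 by 0.26 and Siae by -0.42. The other genes among the 10 smallest, Wdfy2, Tbc1d9b, Flrt1 and Mroh3, differed by 0.29, 0.40, -0.27 and -0.19 in heterozygous and by -0.46, -0.37, 0.29 and 0.19 in wild-type hosts. Tgfb1 differed by 0.29 in heterozygous and by -0.42 in wild-type hosts (unadjusted limma interaction p = 0.0678), and Ltbp2 by 0.85 in heterozygous and by -0.88 in wild-type hosts (unadjusted limma interaction p = 0.00622).

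**Figure D5:**
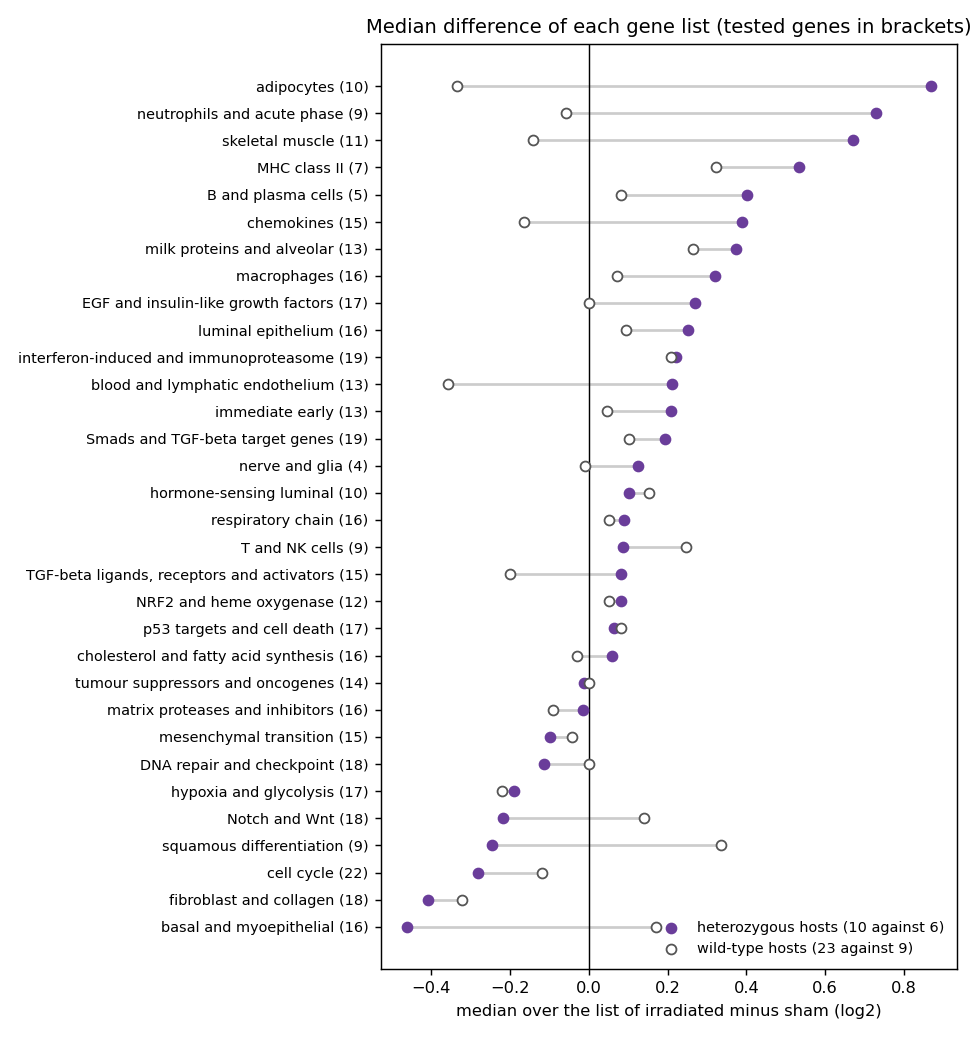
Median over each of 32 gene lists of the difference of irradiated minus sham-treated hosts (log2), as filled points for heterozygous hosts (10 against 6 tumours) and open points for wild-type hosts (23 against 9 tumours), with the number of tested genes in brackets. The lists run from adipocytes (0.87 in heterozygous hosts) at the top to basal and myoepithelial genes (-0.46) at the bottom, and 13 lists have points on opposite sides of 0.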

How the data were processed

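The study measured RNA of frozen tumours on Affymetrix arrays, labelled from 100 ng of total RNA with a 3' IVT kit after Trizol extraction, per the labels' protocols. The authors deposited log2 intensities from RMA, a background correction, between-array normalization and probe summary, per the submitters' processing notes. The sources used here do not give its version, scan dates or other batches. Gland arrays were not used.

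The platform annotation gave 34958 of 45101 probe sets 1 gene, 932 several and 9211 none, and only the first kind was used, 99.4% of which matched a RefSeq table (GRCm38.p6) used for names alone. Each of 18194 genes was read from its probe set of highest mean over the 48 tumours, and genes under the 40th percentile of probe set means (5.14) were set aside, which left 12786. Signal over background is not in these values. Means of 4 groups were fitted with limma 3.58.1 in R 4.3.3 (44 residual degrees of freedom, empirical Bayes with a trend), with two-sided p-values adjusted by Benjamini-Hochberg over the tested genes. The code was checked on simulated data with independent noise in each gene. In these tumours genes vary together, so that check says nothing about the counts found here. Gene lists were described by counts and medians only. Members of a list were read in the same tumours and are not independent of each other. Titles give each tumour a repeat number within its group, which does not identify the host animal. Tumours were treated as independent. The labels of 1 wild-type-host tumour disagreed on treatment, and its title decided (irradiated).

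Genes were named by rule: the 12 of smallest p in each direction, 3 per list of smallest p, the Tgfb ligands and Trp53, the 10 of smallest interaction p, the 5 largest differences each way with p under 0.01, and cell type markers. Further list members are given as examples chosen after their values were seen. The members and lists were chosen with earlier results of these data known. Alternatives changed the arrays fitted, the probe set rule, the filter, the normalization, array weights, the variance prior and a luminal covariate, left out each tumour in turn, and moved the tumour of conflicting labels. Another 6 were added after seeing the data: 4 that leave out the epithelial-low or muscle-rich tumours, 1 other filter and 1 replicate block for the difference of changes.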

Additional observations from a re-analysis of the deposited data

Results flagged for a closer look

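Within the 2 groups of tumours, 362 sets of values over 149 named genes and 32 lists were checked for 1 tumour far from the others. Of these sets 21 stood out. The rule flags about 1 in 20 sets of independent, normally distributed values. These sets share tumours and genes, so their count cannot be read against that rate. A check for 1 tumour also passes over tumours that stand apart together, as irradiated-host tumours 9 and 17 did for skeletal muscle genes. No explanation was tested.

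In irradiated-host tumours, tumour 9 was highest for Krt5 (10.07, next 8.04), Jag2 (7.96, next 7.49), Ikzf4 (5.95, next 5.64) and the basal list (10.79, next 8.79). Tumour 13 was highest for Ltbp2 (12.04, next 10.27) and Cd22 (8.21, next 6.98), and lowest for Ankra2 (7.01, next 7.51) and Sdha (10.72, next 10.95). Tumour 14 was lowest for Rasa1 (9.73, next 10.34), Ctss (11.61, next 12.76) and C1qa (10.62, next 12.10). Tumour 18 was highest for Lig4 (11.20, next 9.28) and lowest for Mcm2 (9.02, next 9.51). Tumour 12 was highest for Tgfb1 (9.29, next 8.69), and tumour 11 lowest for Slc2a1 (10.00, next 10.76).

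In sham-host tumours, tumour 3 was highest for Ubap2l (11.80, next 10.51) and Tgfb2 (10.34, next 9.00) and lowest for Cxcl1 (7.04, next 9.21). Tumour 1 was highest for H2ax (11.84, next 10.39) and lowest for Lig4 (6.29, next 7.43) and Ier3ip1 (9.38, next 10.23).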

How the results depend on the processing

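For tumours of irradiated minus sham-treated heterozygous hosts, and for the difference of changes between host genotypes, 0 genes passed the adjusted threshold under every alternative run, and leaving out each of the 16 tumours in turn gave 0 to 0. The smallest adjusted p for the heterozygous hosts was 0.679 with array weights and 0.461 with only heterozygous-host tumours and without the 4 epithelial-low ones. For the difference of changes it was 0.265 without sham-host tumour 4. Genes at an unadjusted p under 0.05 numbered 399 without sham-host tumour 1 and 663 without sham-host tumour 4, against 505. No named gene reached the threshold under any alternative. At the 60th percentile filter no T and NK cell gene was left. No paired analysis was possible for the heterozygous hosts because the groups compared share no replicate number. Wild-type groups share numbers 1 to 9. Same-numbered tumours deviated together, with a correlation over 0.1, in 4 of 9 pairs (median -0.03, range -0.37 to 0.39). The other pairs had a median of 0.03 and a range of -0.50 to 0.71. With so wide a spread, 9 pairs cannot show whether same-numbered tumours share more than a number. With the replicate number as a block over the 48 tumours, an alternative added after seeing the data, 0 genes passed for the difference of changes between genotypes (smallest adjusted p 0.676, with 622 genes at an unadjusted p under 0.05). What limits precision here was not tested, and dim genes near 5.14 may lie in background. The cause of shifts without a tumour was not tested.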
